A study of Mus musculus with 24 samples.

Results

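The genes described here encode the subunits of the proteasome and the ubiquitin-conjugating enzymes, followed through tunicamycin treatment in mouse embryonic fibroblasts. They were taken by symbol from the gene table of the array: genes named Psma to Psmg followed by a number and at most 1 letter, and genes named Ube2 followed by a letter and any digits. The rule leaves out Ube2d2a, whose symbol ends in a further letter, and Psmc3ip and Psme3ip1, which are no subunits. This gave 64 of 8251 genes, of which 44 were proteasome genes and 20 were Ube2 genes. Values were probe set signals, a linear brightness scale, from 24 oligonucleotide arrays in 6 groups of 4 arrays lettered A to D. The groups were wild type and CHOP-/- primary fibroblasts, each left untreated or given tunicamycin, at 2 µg/ml per the labels, for 4 h or for 8 h. CHOP-/- cells lack the transcription factor CHOP, encoded by Ddit3. The labels give passage 3 for 3 of the 4 untreated wild type arrays, name no tissue or sex of origin, and do not say whether the letters are separate cultures. The p-values therefore measure only the spread between these samples, which may be technical.

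Tunicamycin stops sugar chains from being added to new proteins. These then fail to fold in the endoplasmic reticulum (ER), which switches on the unfolded protein response. Part of that response is ER-associated degradation: misfolded proteins are tagged with ubiquitin, drawn out to the cytosol by the ATPase p97 and destroyed by the proteasome. Ubiquitin is passed from an activating enzyme (E1) to a conjugating enzyme (E2, here the Ube2 genes) and then, with a ligase (E3), to the substrate. The proteasome is a 20S barrel of alpha and beta subunits, capped by a 19S particle whose ATPases unfold the substrate and whose other subunits bind ubiquitin and remove it. Assembly chaperones of the Psmg group put the alpha rings together.

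Promoter sequence is shown first for the 4 genes that passed the test in at least 1 comparison below and whose sequence can be given, since it is where the factors of this response would be read. Each line gives the 200 bases before a transcription start listed by RefSeq (GRCm38.p6), 5′ to 3′ on the strand of the gene. Capitals mark matches, on either strand, to any of 5 motifs. These were the antioxidant response element core TGANNNNGC (bound by the Nrf factors that drive proteasome genes) and the CCAAT box CCAAT (bound by NF-Y). The others were the composite element core of ATF4 and CHOP TGATGCAAT, the unfolded protein response element core TGACGTG and the ER stress element. The last was searched as CCAAT and then CCACG, with a fixed gap of any bases between them. The motifs can overlap, since TGACGTG followed by GC is also a match to the antioxidant core.
Psma5, chr3:108256726-108256925, plus strand: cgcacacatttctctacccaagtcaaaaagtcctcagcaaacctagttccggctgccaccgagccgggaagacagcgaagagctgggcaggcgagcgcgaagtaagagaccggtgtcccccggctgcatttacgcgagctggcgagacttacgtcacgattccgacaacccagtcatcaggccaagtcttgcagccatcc
Psmd5, chr2:34870963-34871162, minus strand: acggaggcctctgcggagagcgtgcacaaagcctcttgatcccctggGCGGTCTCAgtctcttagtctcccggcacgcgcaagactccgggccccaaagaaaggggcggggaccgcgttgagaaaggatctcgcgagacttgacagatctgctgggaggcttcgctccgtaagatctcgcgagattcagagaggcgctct
Ube2f, chr1:91250104-91250303, plus strand: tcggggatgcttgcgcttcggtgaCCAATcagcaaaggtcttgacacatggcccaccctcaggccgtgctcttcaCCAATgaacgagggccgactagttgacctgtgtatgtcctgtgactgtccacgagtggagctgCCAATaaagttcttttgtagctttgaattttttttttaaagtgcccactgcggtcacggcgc
Ube2r2, chr4:41135821-41136020, plus strand: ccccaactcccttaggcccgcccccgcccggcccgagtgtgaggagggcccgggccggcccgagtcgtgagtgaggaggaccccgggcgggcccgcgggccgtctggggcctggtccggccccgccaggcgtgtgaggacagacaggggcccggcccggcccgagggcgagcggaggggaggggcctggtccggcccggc
Psmd5 held 1 match to the antioxidant core, on the opposite strand at 153 to 145 bases before the start. Ube2f held 3 CCAAT matches on its own strand, which began 176, 125 and 62 bases before this start. RefSeq lists another start for Ube2f, which is not shown. Psma5 and Ube2r2 had no match in these 200 bases, which says only that these letters were not there. The longer window of Psma5 counted next did hold the antioxidant core, not wholly within the bases shown, as did the window of the other Ube2f start.

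The shared features were counted in windows of 300 bases, 250 before and 50 after each start, which the RefSeq table held for 53 of the 64 members. The antioxidant core was in 22 of 39 proteasome windows (56.4%), in 8 of 22 Ube2 windows (36.4%) and in 41.3% of the 32851 windows of all genes. CCAAT was in 33.3% of proteasome windows, 22.7% of Ube2 windows and 37.4% of all windows. The composite element of ATF4 and CHOP and the ER stress element were in none of the members' windows, and in 0.192% and 0.119% of all windows. The unfolded protein response core was in 1 proteasome window, that of Psma1, in no Ube2 window and in 2.01% of all windows. A match is a run of letters and not a measured binding site. The 3 stretches below show the matched letters, in capitals, with 15 bases on each side, for 2 subunits of the 20S barrel with the antioxidant core and for the Psma1 match.
Psma4, chr9:54950717-54950755, plus strand: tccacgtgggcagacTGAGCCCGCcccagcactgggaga
Psmb5, chr14:54618019-54618057, minus strand: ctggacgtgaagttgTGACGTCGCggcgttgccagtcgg
Psma1, chr7:114276255-114276291, minus strand: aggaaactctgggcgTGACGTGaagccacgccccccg

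The labels were checked on the deleted gene. Ddit3 signals in untreated wild type cells were 296.2, 215.5, 437.0 and 249.9, and after 8 h of tunicamycin 3857.0, 4782.1, 4009.9 and 4883.0. In the 12 CHOP-/- arrays they lay between 6.9 and 40.4, below every wild type array. Of 10 fibroblast markers, 9 had a mean signal above the filter for low signals in every group, while 3 or 4 of 8 muscle, 2 of 6 neural, 1 of 6 epithelial, 1 of 6 endothelial and 0 of 4 measured cartilage, bone and fat markers did. Leukocyte markers were uneven. Their summed signal was 1889 to 3489 in wild type arrays lettered A or B and 464 to 812 in those lettered C or D, at all 3 times, and 421 to 1336 in CHOP-/- arrays. In such bulk samples, fewer cells of a type and less RNA per cell cannot be told apart.

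Of the 64 members, 41 proteasome genes and 15 Ube2 genes passed the filter, a mean log2 signal above the 40th percentile of all genes, and 4950 genes in all were tested. The members left out by it were Psmb9, Psmc4, Psmd2, Ube2c, Ube2e3, Ube2l6, Ube2t and Ube2w. Changes are log2 differences of quantile-normalized signals with a pseudocount of 5.7, from limma with Benjamini-Hochberg adjustment over all 4950 genes, and a gene is called when the adjusted p is under 0.05. On this scale 1 is a doubling, and low signals are understated.

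Few proteasome or Ube2 genes changed with tunicamycin, and most were bounded to small changes. In wild type cells at 8 h, 1 of 41 proteasome genes (Psmg2, higher) and 1 of 15 Ube2 genes (Ube2r2, lower) were called, against 18.3% of all tested genes. At an unadjusted p under 0.05 there were 4 proteasome and 3 Ube2 genes in each genotype (limma), where 1454 of 4950 genes passed that p in wild type and 1398 in CHOP-/- cells. The CHOP-/- cells at 8 h had 2 proteasome genes (Psma5, lower, and Psmd5, higher) and 1 Ube2 gene (Ube2f, higher) called, against 15.7% of all genes. At 4 h no member was called in either genotype, where 2.34% of genes were called in wild type cells and 1.64% in CHOP-/- cells. At an unadjusted p under 0.05 there were 2 proteasome genes and 0 Ube2 genes at 4 h in wild type cells, and 1 of each in CHOP-/- cells. Of all 4950 genes, 578 passed that p at 4 h in wild type and 597 in CHOP-/- cells. No member was called at 4 h under any of the other settings run either.

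The medians of both families lay near 0. The median log2 change of the 41 proteasome genes was -0.07 at 8 h in wild type cells and -0.10 in CHOP-/- cells, with 14 and 10 of them above 0, beside a median of -0.02 and -0.01 over all genes. For the 15 Ube2 genes it was 0.02 and 0.04, with 8 above 0 in each genotype. The extremes at 8 h in wild type cells were -0.49 and 0.64 among proteasome genes and -0.42 and 0.51 among Ube2 genes, while over all genes they were -4.73 and 4.73. With each array centred on its median in place of quantile normalization, 21 of 41 proteasome genes lay above 0 at 8 h in CHOP-/- cells and their median was 0.0, so the small downward median there depends on the scaling.

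How small the changes could be was read from the 95% intervals. In wild type cells at 8 h, the interval lay within a 1.5-fold change in either direction for 34 of 41 proteasome genes (82.9%), for 11 of 15 Ube2 genes (73.3%) and for 43.4% of all genes. For CHOP-/- cells it did so for 32 proteasome genes (78.0%), 10 Ube2 genes (66.7%) and 44.6% of all genes. Many proteasome genes are bright, and bright genes have narrower intervals. Among the 1827 genes at or above the lower quartile of the proteasome genes' signal, the median standard error was 0.151, against 0.182 for all genes. Of those 1827, 56.6% had an interval within 1.5-fold at 8 h in wild type cells, and of the 31 proteasome genes among them 28 (90.3%) did. In the same signal range at 8 h, 21.8% of genes were called in wild type cells, and none of the 31 proteasome genes. Psmg2, the proteasome gene called in wild type cells, lay below this range. In CHOP-/- cells 16.8% of genes in this range were called, and 2 of the 31. There 59.5% of genes had an interval within 1.5-fold, as did 27 of the 31 (87.1%). Among the 2958 genes at or above the lower quartile of the Ube2 genes' signal, 51.3% had an interval within 1.5-fold in wild type cells, as did 8 of 11 Ube2 genes, and 20.5% were called, with 1 of the 11. In CHOP-/- cells those shares were 53.8% and 16.7%, with 8 and 0 of the 11 Ube2 genes. Ube2f, the Ube2 gene called in CHOP-/- cells, lay below this range.

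**Figure D1:**
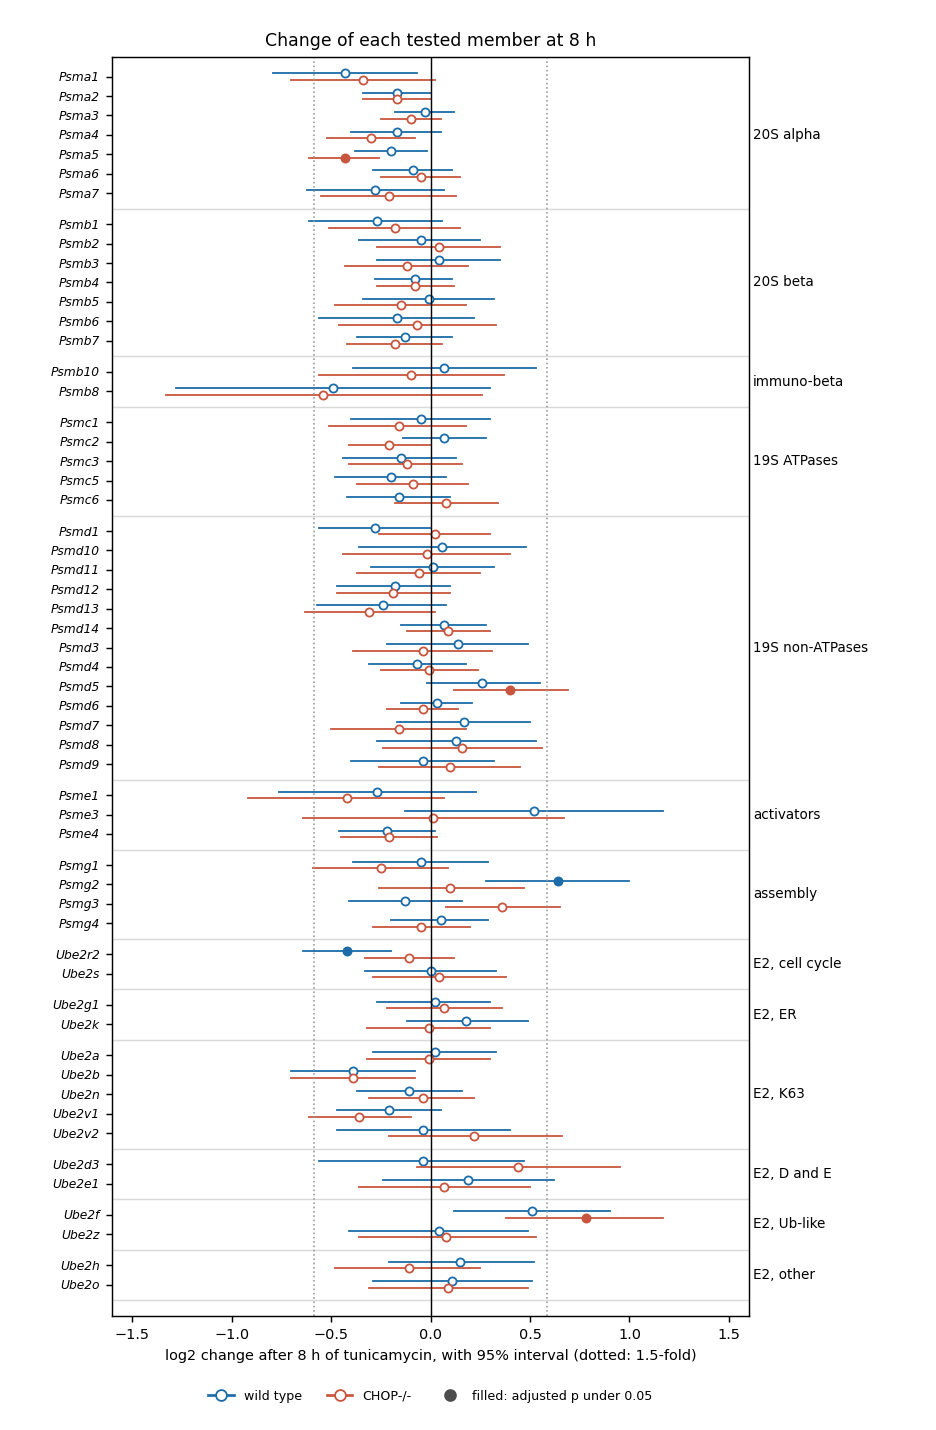
Log2 change (x axis) of each of the 56 tested members after 8 h of tunicamycin in wild type (blue) and CHOP-/- cells (red), with 95% intervals, grouped by role. Filled points mark the 5 called changes, and dotted lines mark 1.5-fold. Most points lie between the dotted lines, and all 7 alpha subunits lie left of 0 in both genotypes, which for CHOP-/- cells holds for 5 of 7 with median centring. So do 6 of 7 constitutive beta subunits, or 3 of 7 in CHOP-/- cells with median centring.

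Among the 20S alpha subunits, which form the outer rings and the gate of the barrel, all 7 genes had changes below 0 at 8 h in both genotypes, although only 5 of the 7 did in CHOP-/- cells with median centring or with the deposited scaling. The medians were -0.17 in wild type and -0.21 in CHOP-/- cells, the latter being -0.11 with median centring and -0.13 without CHOP-/- 8 h array B. Only Psma5 in CHOP-/- cells was called. Leaving out array 8 h C in wild type cells or array 8 h B in CHOP-/- cells left 6 of 7 below 0. The direction was not particular to the alpha subunits. Of the 7 constitutive beta subunits, 6 lay below 0 in each genotype, or 3 in CHOP-/- cells with median centring. Only 1 of the 5 tested 19S ATPases lay above 0 in each genotype. Over all genes, 47.6% lay above 0 in wild type and 48.2% in CHOP-/- cells.

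Psma5 gave signals of 1034.4, 1124.7, 1131.3 and 1116.1 on untreated CHOP-/- arrays and 863.7, 827.2, 769.2 and 812.1 at 8 h. All 4 treated arrays lay below all 4 untreated ones. The log2 change was -0.43 (SE 0.0856, n = 4 against 4 arrays, limma adjusted p = 0.00106), to 0.741 of the untreated level. In wild type cells the signals were 1152.4, 1264.6, 1164.2 and 1159.3 untreated and 1047.1, 1057.2, 1006.2 and 1024.6 at 8 h. These groups did not overlap either, but the change of -0.20 (SE 0.0856, limma adjusted p = 0.114) was not called. With array weights this wild type change was called (limma adjusted p = 0.0397). The CHOP-/- call was lost with each array centred on its median (limma adjusted p = 0.148).

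Psma1 had the lowest change of the alpha subunits in wild type cells, -0.43 at 8 h (SE 0.175, limma adjusted p = 0.0933), and -0.34 in CHOP-/- cells. Its signals overlapped between groups, from 246.6 to 391.2 untreated and from 215.2 to 262.8 at 8 h in wild type cells. A fit of wild type arrays alone with the array letter as a block called it at 8 h (limma adjusted p = 0.0169), and the same block over all 24 arrays did not. Array weights, or leaving out untreated wild type array D, also gave a call there. Psma3 had -0.03 and -0.10, and Psma6 had -0.09 and -0.05.

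The 7 constitutive beta subunits include the 3 that cut: Psmb6, Psmb7 and Psmb5, the last being the chymotrypsin-like site that proteasome inhibitors block. None was called in any comparison. Psmb5 signals were 2382.2, 2350.2, 2718.3 and 2079.5 in untreated wild type cells and 2362.2, 1953.1, 2601.0 and 2255.5 at 8 h. The groups overlapped, and the log2 change was -0.01, with a 95% interval of -0.34 to 0.32. The same change was -0.15 at 8 h in CHOP-/- cells, with an interval of -0.48 to 0.18. The changes of the 7 genes ran from -0.27 to 0.04 in wild type cells and from -0.18 to 0.04 in CHOP-/- cells.

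The inducible beta subunits Psmb8, Psmb9 and Psmb10 replace the cutting ones in the immunoproteasome after interferon. Psmb9 was near the lower end of the scale, at 2.4 to 14.6 on all arrays. Psmb8 signals in wild type cells were 119.2, 133.5, 59.9 and 51.8 untreated on arrays A to D, 113.6, 143.5, 58.5 and 51.0 at 4 h, and 83.3, 90.0, 49.9 and 26.1 at 8 h. Arrays A and B lay above C and D at each time. The leukocyte markers were higher on the same arrays: Lyz2, a macrophage lysozyme, read 651.7 and 1551.3 on untreated A and B, and 134.2 and 167.7 on C and D. Of 8 leukocyte markers 7 were measured, and the pan-leukocyte gene Ptprc read 0.7 to 32.9 over all arrays. The part of leukocytes in the Psmb8 signal was not tested. The change of Psmb8 at 8 h was -0.49 in wild type cells (SE 0.383, limma adjusted p = 0.434). In a fit of wild type arrays alone with the letter as a block it was -0.49 with an adjusted p of 0.0263 (limma), and so called, but it was not with that block over all 24 arrays. It was -0.54 in CHOP-/- cells (SE 0.383, limma adjusted p = 0.392). Psmb10 had changes of 0.07 and -0.10. None of 8 tested interferon and antigen presentation genes was called in any comparison, with 1 and 2 of them under an unadjusted p of 0.05 between genotypes at 4 h and 8 h (limma). Of all 4950 genes, 787 and 875 were under that p in these 2 comparisons.

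The 19S ATPases thread the substrate into the barrel. None of the 5 tested ones was called, and all 5 had intervals within 1.5-fold at 8 h in each genotype. Their changes ran from -0.20 to 0.07 in wild type cells and from -0.21 to 0.08 in CHOP-/- cells. Psmc4 read only 1.2 to 32.1 over all arrays on its probe set, below the filter.

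The 19S non-ATPases include subunits that recognise ubiquitin chains and cut them off, as Psmd14 does at the entrance to the barrel. Of 13 tested genes with Psmd symbols, 1 was called, the assembly chaperone Psmd5. Psmd14 had changes of 0.07 in wild type and 0.09 in CHOP-/- cells at 8 h, with a 95% interval of -0.15 to 0.28 in wild type cells. Psmd5, a chaperone of 19S base assembly, had signals of 1022.3, 788.8, 739.3 and 743.7 on untreated CHOP-/- arrays and 1077.5, 1056.5, 1176.0 and 996.4 at 8 h. Array A of the untreated group lay within the range of the treated arrays. The log2 change was 0.40 (SE 0.138, limma adjusted p = 0.049), a 1.32-fold rise, and the call ended in 15 of 19 other settings, where the largest adjusted p was 0.127. In wild type cells its change was 0.26 (SE 0.138, limma adjusted p = 0.213).

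The activators open the barrel without the 19S cap: Psme1 is part of the interferon-inducible one, Psme3 of the nuclear one and Psme4 is the large single-chain one. None of the 3 was called. Psme3 was the most variable of them, with signals of 747.4, 284.5, 855.3 and 319.0 on untreated CHOP-/- arrays. Its change at 8 h was 0.52 in wild type cells (95% interval -0.13 to 1.17) and 0.01 in CHOP-/- cells. Psme1 had -0.27 and -0.42, both with adjusted p above 0.05 (limma, 0.508 and 0.259).

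Psmg2 rose in wild type cells. It encodes an assembly chaperone that works as a pair with Psmg1 to build the alpha ring. Its signals were 273.2, 315.2, 376.2 and 248.1 untreated, 294.4, 388.1, 363.3 and 343.8 at 4 h, and 463.8, 357.3, 619.4 and 516.5 at 8 h. Array B of the 8 h group, at 357.3, lay within the untreated range and the other 3 above it. The log2 change at 8 h was 0.64 (SE 0.175, limma adjusted p = 0.0125), or 1.56-fold. The call ended without wild type 8 h array C, the highest one, where the adjusted p was 0.0554 (limma). The CHOP-/- signals were 347.6, 375.3, 261.3 and 274.7 untreated and 335.0, 313.9, 366.6 and 324.5 at 8 h, which overlapped, and the change was 0.10 (SE 0.175, limma adjusted p = 0.753). The difference between the 2 responses at 8 h was -0.54 (SE 0.248, 95% interval -1.05 to -0.02) and was not called (limma adjusted p = 1.0).

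The partner Psmg1 had a change of -0.05 in wild type and -0.25 in CHOP-/- cells at 8 h, neither of them called. Psmg3 and Psmg4 form the other chaperone pair. Psmg3 signals in CHOP-/- cells were 147.5, 145.0, 125.2 and 136.5 untreated and 178.4, 178.3, 182.1 and 180.2 at 4 h, with no overlap, and 208.5, 175.6, 151.2 and 235.1 in untreated wild type cells, which all lay higher. Wild type cells at 4 h read 202.0, 148.1, 124.0 and 153.2. Its change was 0.40 in CHOP-/- cells at 4 h (SE 0.137, limma adjusted p = 0.173) and -0.34 in wild type cells (SE 0.137, limma adjusted p = 0.288). The response difference at 4 h, 0.73 (SE 0.193), was the largest of the 56 tested members and was not called (limma adjusted p = 0.995). A dimmer probe set for Psmg3 gave a response difference of -0.37 (SE 0.382) at 4 h, the opposite sign. It also gave 0.69 at 8 h in wild type cells where the brighter one gave -0.13, and none of these was called.

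**Figure D2:**
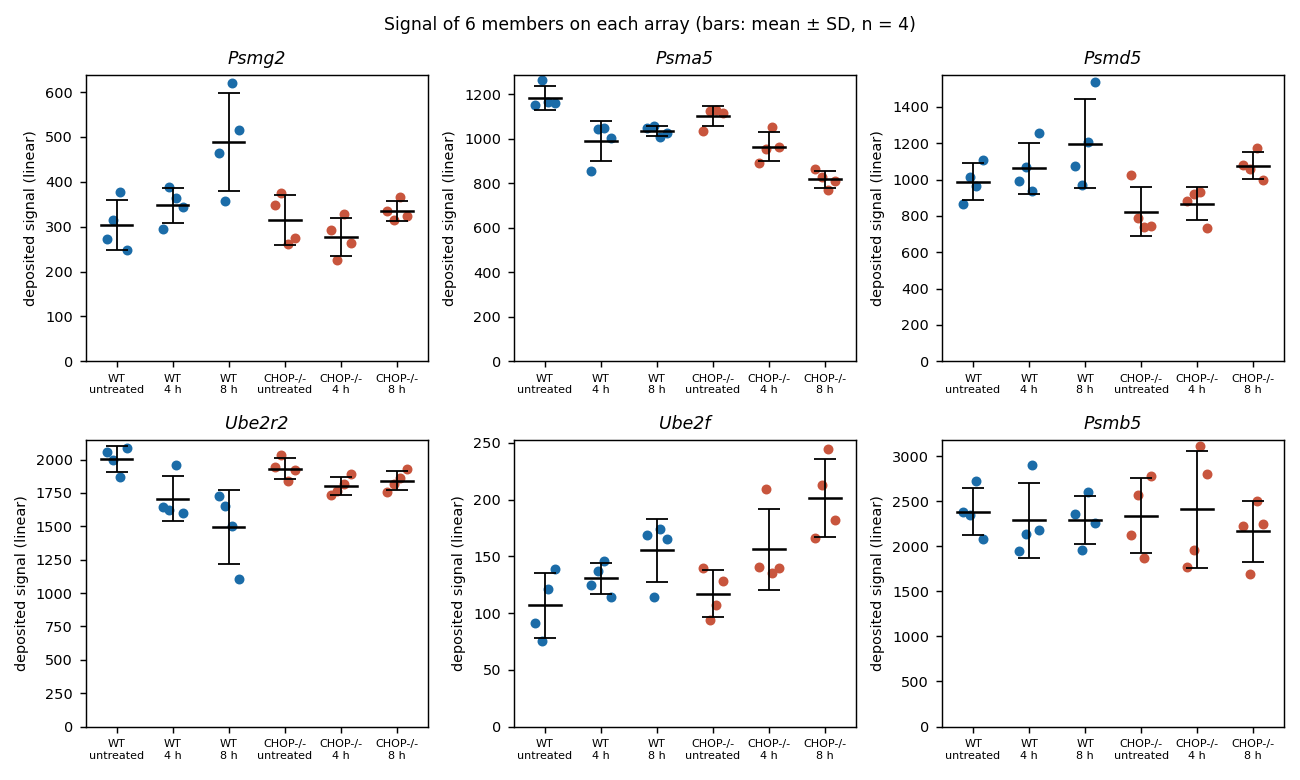
Deposited signal (y axis, linear, from 0) on each of the 24 arrays for the 5 members called in some comparison and for Psmb5, with mean ± SD of 4 arrays. Psmg2 averages 489.2 in wild type and 335.0 in CHOP-/- cells at 8 h, Ube2f averages 201.3 in CHOP-/- cells at 8 h and 117.1 untreated, and Psmb5 overlaps in all 6 groups.

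Among the Ube2 genes, Ube2r2 fell in wild type cells at 8 h. It is a relative of Cdc34, the E2 that works with SCF ligases in the cell cycle. Its signals were 2055.7, 1996.0, 1869.1 and 2086.9 untreated and 1723.4, 1654.2, 1498.7 and 1105.1 at 8 h. No treated array reached the untreated range, and array D was the lowest. The log2 change was -0.42 (SE 0.107, limma adjusted p = 0.00777), to 0.748 of the untreated level. The CHOP-/- change was -0.11 (SE 0.107, limma adjusted p = 0.562), with signals of 1836.1 to 2031.1 untreated and 1760.7 to 1928.4 at 8 h. The difference of the responses was 0.31 (SE 0.152) and was not called. The wild type call was lost with median centring and in a fit of the 2 groups alone, where the largest adjusted p was 0.0935 (limma).

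Ube2f rose in CHOP-/- cells. It is an E2 for NEDD8, the ubiquitin-like protein that activates cullin ligases. Its signals were 139.5, 93.6, 107.2 and 128.0 untreated, 140.8, 209.6, 135.2 and 139.6 at 4 h, and 166.5, 212.4, 244.2 and 182.1 at 8 h. All 8 h arrays lay above all untreated ones. The log2 change was 0.78 (SE 0.19, limma adjusted p = 0.00641), or 1.71-fold, and it was called in each of the 19 other settings for this comparison. In wild type cells it was 0.51 (SE 0.19, limma adjusted p = 0.0659). It was called there in 5 other settings, with changes up to 0.69 and a lowest adjusted p of 0.00199 (limma). These included array weights and wild type arrays alone with the letter as a block (limma adjusted p = 0.0352). The others left out untreated array C, untreated array D or 8 h array B. Ube2f was not called there with the block over all 24 arrays. The response difference of 0.27 (SE 0.269, 95% interval -0.29 to 0.82) was not called.

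The 2 E2 enzymes of ER-associated degradation measured here did not pass the test. Ube2g1, which serves ER ligases, read 1237.1, 1228.6, 1150.7 and 1111.6 untreated and 1197.5, 1039.2, 1286.8 and 1287.3 at 8 h in wild type cells. The groups overlapped, and the change was 0.02, with a 95% interval of -0.27 to 0.30. It was 0.07 in CHOP-/- cells (-0.22 to 0.36). Ube2k, which extends chains linked through lysine 48, had 0.18 (-0.12 to 0.49) and -0.01 (-0.32 to 0.30). A dimmer Ube2k probe set gave -0.42 in wild type cells, also not called. Ube2g2, Ube2j1 and Ube2j2, the other E2 enzymes of this pathway, were not analysed here, since no probe set was assigned to one of them alone.

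Ube2b, one of the 2 Rad6 enzymes of DNA damage tolerance, had the same change of -0.39 in both genotypes at 8 h. Its wild type signals were 363.3, 385.3, 429.3 and 328.4 untreated and 281.9, 317.1, 327.3 and 241.1 at 8 h, without overlap (limma adjusted p = 0.0704). It was called there with array weights. A fit of wild type arrays alone with the letter as a block also called it (limma adjusted p = 0.0112). The block over all 24 arrays did not. In CHOP-/- cells it was called with array weights and without 8 h array D. The other Rad6 gene, Ube2a, had 0.02 and -0.01. Ube2n makes chains linked through lysine 63 together with the inactive partners Ube2v1 and Ube2v2, and had -0.11 and -0.04. For Ube2v1, the arrays of both 8 h groups lay below the untreated arrays of their genotype. Its changes of -0.21 and -0.36 were not called (limma adjusted p = 0.28 and 0.056). The latter was called with the replicate block over all 24 arrays and without CHOP-/- 8 h array A or B.

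Ube2s and Ube2c are the E2 enzymes of the anaphase-promoting complex. Ube2s had changes of 0.0 and 0.04 at 8 h. Ube2c lay below the filter, with at most 97.5. Ube2t, the E2 of the Fanconi anaemia pathway, also lay below it, with signals of 65.3, 28.4, 61.0 and 54.8 in untreated CHOP-/- cells and 18.0, 21.7, 22.6 and 23.6 at 8 h. The groups did not overlap. In a fit with no filter its change was -0.94 (SE 0.207, limma adjusted p = 0.00435), and it was -0.61 in wild type cells (limma adjusted p = 0.0635). At 8 h, 15.7% of all genes were called in CHOP-/- cells and 18.3% in wild type cells. Of 17 tested mitosis genes, 9 were called lower in CHOP-/- cells and 1 in wild type cells at 8 h. Their part in the Ube2t change was not tested. Ube2l6, the E2 of the interferon-induced modifier ISG15, read 5.5 to 34.8 on all arrays.

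The remaining tested Ube2 genes were not called in any comparison. Ube2d3 and Ube2e1, which work with many ligases, had 8 h changes of -0.04 and 0.19 in wild type cells and of 0.44 (SE 0.248, limma adjusted p = 0.259) and 0.07 in CHOP-/- cells. Ube2z, which is charged by the E1 enzyme Uba6, had 0.04 and 0.08. Ube2h had 0.15 and -0.11, Ube2o had 0.11 and 0.09 on its brightest probe set, and Ube2v2 had -0.04 and 0.22. A dimmer Ube2o probe set, tested without the filter, gave 0.49 in wild type cells (limma adjusted p = 0.043). Intervals were wide for Ube2d3, from -0.07 to 0.95 in CHOP-/- cells, and Ube2v2, from -0.21 to 0.66.

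The same comparison was made on the deposited signals, before quantile normalization, by whether the 4 arrays of one group all lay beyond the 4 of the other. At 8 h against untreated, this held in wild type cells for Psma5, Psmd13, Ube2b, Ube2r2 and Ube2v1, all lower, against 21.8% of all tested genes in either direction. Among CHOP-/- arrays it held for Psma5, Psmg1 and Ube2v1, lower, and Ube2f, higher, against 18.6% of genes. At 4 h it held for Psma5 and Psmg4, lower, in wild type cells (6.53% of genes) and for Psmd14, lower, and Psmg3, higher, in CHOP-/- cells (5.9% of genes). Psma5 and Ube2v1 were on the 8 h list in both genotypes. These 2 comparisons share no arrays, but they are not independent. Arrays of the same letter deviated together between the 8 h groups of the 2 genotypes (correlations of 0.304 to 0.579). The share of all genes on both lists was not counted. Across the 41 proteasome genes, the 8 h changes of the 2 genotypes had the same sign for 65.9%, against 60.0% of the Ube2 genes and 76.4% of all genes, and Pearson's r across genes was 0.56. It was 0.71 across the 15 Ube2 genes and 0.81 across all 4950, and genes are not independent replicates.

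**Figure D3:**
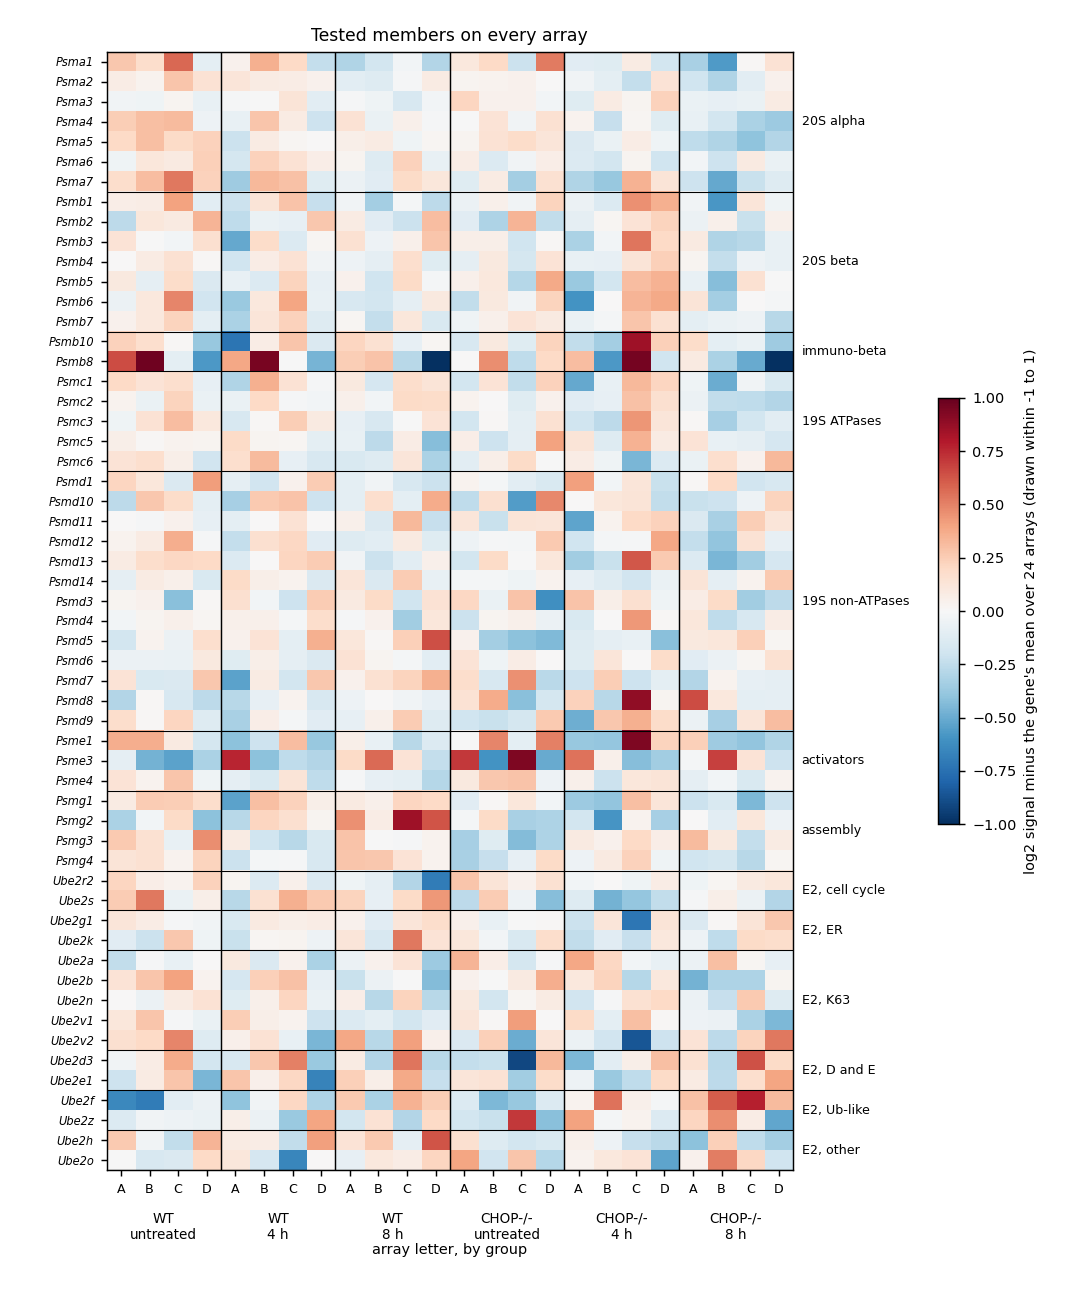
Log2 signal of each of the 56 tested members (rows, by role) on each of the 24 arrays (columns, by group and letter), minus the gene's mean over all arrays, in colour. No block of rows changes colour as a whole between treatments. Array C of the CHOP-/- 4 h group is higher across many proteasome genes, with a median of 0.2.

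Between genotypes, no member was called before treatment. Of all tested genes, 0.949% were called between untreated CHOP-/- and wild type cells. At an unadjusted p under 0.05 there were 2 proteasome genes and 0 Ube2 genes, against 445 of all 4950 genes. The deposited signals did not overlap for Psma5, Psma7, Psmg1 and Psmg3, all lower in CHOP-/- cells, against 5.21% of all genes. On the normalized log2 values Psmg1 did overlap. Psma7 had the signals 1207.2, 1378.4, 1596.6 and 1247.0 in wild type and 995.1, 1162.3, 846.4 and 1201.2 in CHOP-/- cells, but its highest CHOP-/- value is below its lowest wild type value by only 6.0. The difference was -0.37 (SE 0.165, limma adjusted p = 0.488). Psmg3 had -0.50 (SE 0.137, limma adjusted p = 0.0962) and was called without untreated wild type array C (limma adjusted p = 0.0466). At 4 h no member was called, against 2.51% of genes. With an unadjusted p under 0.05 there were 1 proteasome gene and 1 Ube2 gene, against 787 of all 4950 genes. Psmd5 was the only member whose arrays did not overlap on the deposited signals, against 6.81% of genes. Its normalized log2 values did overlap.

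At 8 h, Psma5 was lower in CHOP-/- than in wild type cells, with signals of 863.7, 827.2, 769.2 and 812.1 against 1047.1, 1057.2, 1006.2 and 1024.6. The groups did not overlap. The difference was -0.34 (SE 0.0856, limma adjusted p = 0.0227). It was the only member called, against 4.46% of all genes. It was not called with median centring, in a fit of the 2 groups alone, or without wild type array A, wild type array B or CHOP-/- array C, where the largest adjusted p over these settings was 0.244. The arrays also did not overlap for Psmg1, lower, and Ube2r2, higher in CHOP-/- cells, against 12.0% of all genes. In a fit of the 8 h arrays alone with the letter as a block, 4 proteasome genes were called (limma), all lower in CHOP-/- cells: Psma5, Psmg2 (-0.51), Psmc2 (-0.32) and Psmd7 (-0.30), with adjusted p of 0.0288, 0.0301, 0.0482 and 0.0379. Over all genes that fit gave 643 calls, while the fit of all 24 arrays gave 221 without the block and 322 with it. Psma5 was the only one of these 4 called with the block over all 24 arrays.

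The change with tunicamycin was not shown to differ between the genotypes for any member. No response difference was called among the members at 4 h, where 0.0% of all genes were called, or at 8 h, where 0.0404% were. At an unadjusted p under 0.05 there were 2 proteasome genes and 0 Ube2 genes at each time (limma). Of all 4950 genes, 187 passed that p at 4 h and 225 at 8 h. The median standard error of a response difference was 0.257, so its intervals were wider than those of a single change. At 8 h the 95% interval lay within 1.5-fold for 22 of 41 proteasome genes, 7 of 15 Ube2 genes and 29.9% of all genes.

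A fit of wild type arrays alone with the array letter as a block changed 2 choices at once and gave more calls at 8 h (limma): 3 proteasome genes (Psma1, Psmb8 and Psmg2) and 3 Ube2 genes (Ube2b, Ube2f and Ube2r2), with 1536 calls over all genes. The fit of all 24 arrays gave 904 without the block and 1030 with it. At 4 h the wild type fit gave 328 calls over all genes and none among the members, where the fit of all arrays gave 116 without the block and 146 with it. Psmg2 and Ube2r2 kept changes of 0.64 and -0.42 there, with adjusted p of 0.00702 and 0.0135.

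Replicate arrays differed together across many proteasome genes. After each group's mean was taken out, the median correlation over the 820 pairs of proteasome genes was 0.18, and 19.6% of pairs were above 0.5. Over the 105 pairs of Ube2 genes the median was -0.02 with 13.3% above 0.5, and over all pairs of tested genes it was 0.0 with 6.78%. The arrays share their scaling and the pairs share genes, so these values are a description. Array C of the CHOP-/- 4 h group stood apart: Psmd8 read 3374.6 there against 1354.8 to 1948.0 on the other 3 arrays, and Psme1 read 483.3 against 197.2 to 303.0. No member was called at 4 h in CHOP-/- cells with or without that array.

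The other genes of the pathway stood beside this as follows. Lists of E1 enzymes, ligases, p97 cofactors and regulators had been drawn up by name, with earlier results of these data known. Their ranking is therefore a description and not a test. The ER ligases and their partners had the highest median of these lists at 8 h in each genotype. Of 10 tested, 4 passed the test in wild type cells at 8 h, against 18.3% of all genes. All 4 were higher: Herpud1 by 3.09, Sel1l by 1.96, Derl1 by 1.06 and Derl2 by 0.82. Herpud1 and Sel1l organise the ER ligase complex, and the Derl proteins are membrane parts of it. Among CHOP-/- cells 5 were called, all higher, against 15.7% of all genes, with 2.99, 1.71, 1.24 and 0.95 for these genes. The median of the list was 0.59 in each genotype.

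Of 6 tested genes of p97 and its cofactors, Vcp, which encodes p97, rose by 0.45 and Ufd1 by 0.70 in wild type cells at 8 h (limma adjusted p = 0.00468 and 0.0263). The share called over all genes there was 18.3%, so these are 2 of 6 against that share. None of the 6 was called in CHOP-/- cells at either time, where Vcp had 0.21. Vcp was lower in CHOP-/- than in wild type cells at 8 h, with a log2 difference of -0.58 (SE 0.107, limma adjusted p = 0.00188), and the difference was -0.34 before treatment (limma adjusted p = 0.189) and -0.49 at 4 h (limma adjusted p = 0.0113). No response difference was called in this list, and that of Vcp at 8 h was -0.24 (SE 0.152). None of 5 tested E1 enzymes and none of 4 tested E2 enzymes with other names was called in any comparison, with at most 1 and 0 of them under an unadjusted p of 0.05 in a comparison (limma). Of 3 tested shuttle factors, which carry ubiquitinated proteins to the proteasome, none was called with treatment and none was under that p.

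Among 8 proteasome deubiquitinases and maturation factors, Pomp fell by 0.64 on the log2 scale in wild type cells (limma adjusted p = 0.026) and by 0.79 in CHOP-/- cells (limma adjusted p = 0.00747) at 8 h. It encodes the chaperone of beta ring maturation. Zfand2a, which binds the proteasome under stress, rose by 0.65 in wild type cells. Of 11 tested genes from a list of factors that act on proteasome genes, 3 were called higher and 2 lower in wild type cells at 8 h. Of all genes, 18.3% were called in that comparison. The list also named Keap1, which is no transcription factor, and a gene with the symbol Nrf1, which is not Nfe2l1. Nfe2l1, which encodes Nrf1, the ER-anchored driver of the proteasome recovery response, rose by 0.72 (SE 0.17, limma adjusted p = 0.00407), and by 0.59 in CHOP-/- cells (limma adjusted p = 0.019). Nfya rose by 0.94 and Mafk by 0.42, while Bach1, a repressor at antioxidant elements, fell by 0.98 and Stat3 fell by 0.63. In CHOP-/- cells Mafk rose by 0.68, while Nfya had 0.64, Bach1 had -0.42 and Stat3 had -0.46, none of the last 3 called. No response difference was called for these genes. Nfe2l2, which encodes Nrf2, had 0.07 and was not called. At 8 h, 0 of 7 alpha and 0 of 7 constitutive beta subunit genes were called in wild type cells, against 18.3% of all genes. In CHOP-/- cells 1 and 0 of them were called, against 15.7%. Under an unadjusted p of 0.05 there were 3 and 0 in wild type and 2 and 0 in CHOP-/- cells (limma). Of all 4950 genes, 1454 were under that p in wild type and 1398 in CHOP-/- cells. A link between the listed factors and the subunit genes was not tested.

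Ligase subunits of the SCF and APC type, the partners of Ube2r2, Ube2c and Ube2s, had 14 tested genes. None was called in wild type cells at 8 h, with 3 under an unadjusted p of 0.05 (limma). Of all 4950 genes, 18.3% were called there and 1454 were under that p. At 8 h in CHOP-/- cells 2 of the 14 were called, both lower, against 15.7% of all genes. Skp1 fell by 0.46 there and Anapc5 fell by 0.41.

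**Figure D4:**
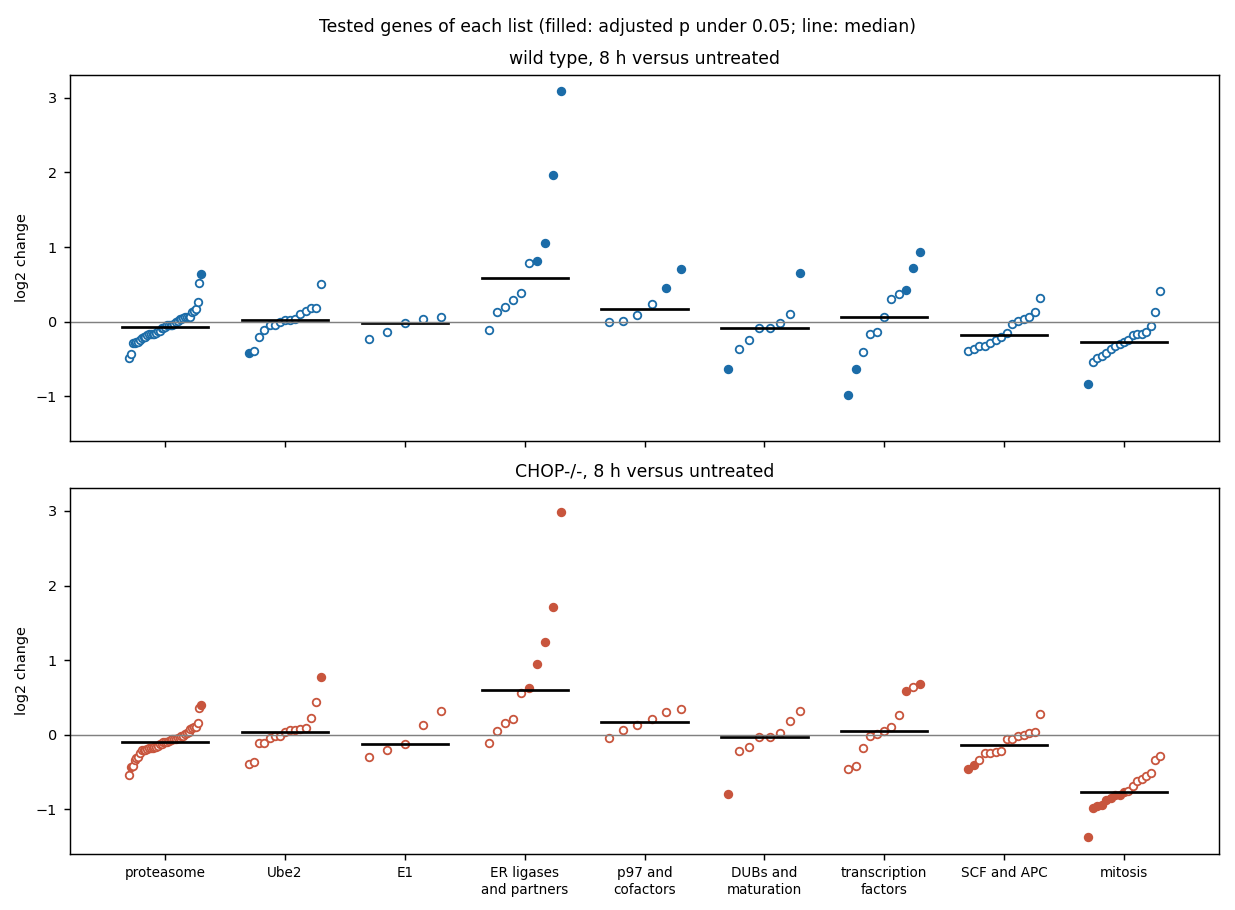
Log2 change (y axis) of the tested genes of 9 lists at 8 h in wild type (top) and CHOP-/- cells (bottom), with each list's median as a line and called genes filled. The proteasome and Ube2 genes lie within -0.54 and 0.78, the ER ligases and partners reach 3.09, and 9 mitosis genes are called lower in CHOP-/- cells.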

How the data were processed

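Probe set signals of 24 arrays were used as the authors deposited them: intensity values on a linear scale, 12488 probe sets per array. From the values, each array had been scaled to a trimmed mean of 250.1 to 250.2. The sources used here do not name the software. A probe set with 1 gene symbol counted for that gene, and the one of highest mean signal stood for it.

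From these, log2(signal + 5.7) was quantile normalized, the pseudocount being the 20th percentile of all signals. Genes above the 40th percentile of mean log2 signal (5.946, a signal of 55.9) were tested. limma 3.58.1 (R 4.3.3) fitted 6 group means on all 24 arrays (lmFit, eBayes with an intensity trend, 18 residual degrees of freedom), with 9 contrasts. All tests were two-sided. The fit was tested on simulated data. Precision is limited by having 4 arrays in a group.

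The letters A to D were checked as pairs. Deviations from group means correlated over every letter between the wild type groups (0.279 to 0.65) and between the 8 h groups of the 2 genotypes (0.304 to 0.579), but not between the CHOP-/- groups (lowest -0.391), nor between genotypes untreated or at 4 h. They also correlated over every letter between untreated wild type and CHOP-/- 8 h arrays (0.231 to 0.491). Fits of the wild type arrays alone and of the 8 h arrays alone, with the letter as a block, were thus alternatives.

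Named genes were proteasome and E2 genes of known role, every called member, the 2 members of each family with the largest rise and fall in each treatment comparison, and up to 4 genes per comparison of each other list. Psma3, Psma4, Psma6, Psma7, Psmc2, Psmd7, Psmd13, Psme4, Psmg1, Psmg4, Ube2a and Ube2t were singled out after their values were seen. The members and lists were chosen with earlier results of these data known. Sequences and names are from RefSeq (GRCm38.p6).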

Additional observations from a re-analysis of the deposited data

Results flagged for a closer look

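Single arrays far from the other 3 of their group were sought for 28 named members in 168 groups of 4 arrays, by the gap to the nearest array over the range of the group (Dixon's test). There were 11, and chance gives about 1 in 20 groups. Psma5 read 1264.6 on untreated wild type array B, where the nearest other array read 1164.2, and 1034.4 on untreated CHOP-/- array A, nearest 1116.1. Psme3 read 746.7 on wild type 4 h array A, nearest 363.8. Psmb9, near the lower end of the scale, read 14.6 on CHOP-/- 4 h array C, nearest 5.0.

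Among the Ube2 genes, Ube2f read 114.0 on wild type 8 h array B, nearest 164.9, and 209.6 on CHOP-/- 4 h array B, nearest 140.8. Ube2r2 read 1958.2 on wild type 4 h array C, nearest 1643.4. Ube2c read 97.5 on wild type 4 h array A, nearest 32.8. Ube2e1 read 290.8 and Ube2z read 1195.9 on untreated CHOP-/- array C, nearest 410.0 and 672.9. Ube2v2 read 93.2 on CHOP-/- 4 h array C, nearest 158.2.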

How the results depend on the processing

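Each family count was recomputed under other settings, 380 counts in all, and 340 stayed within 1.5 times, most of them at 0. Of 117 recomputed values of the 6 called changes, 93 were still called, 24 were not and 0 changed sign. The filter over probe sets and the replicate blocks limited to wild type or 8 h arrays were chosen after seeing the data. Results are counts of called genes.

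Proteasome genes at 8 h in wild type cells, 1 as reported, came to 3 with array weights and 3 with the replicate block in a fit of wild type arrays only, and to 0 to 2 with single arrays left out. Ube2 genes there, 1 as reported, came to 0 with median centring of the arrays, 0 when only the groups compared entered the fit, 3 with array weights, 2 with the filter over probe sets, 3 with the replicate block in that fit, and 1 to 2 with arrays left out. In CHOP-/- cells at 8 h, proteasome genes, 2 as reported, came to 1 with median centring, the deposited scaling, no filter, only the groups compared, array weights, no intensity trend or the filter over probe sets, and to 1 to 2 with arrays left out. Ube2 genes there, 1 as reported, came to 2 with no filter, array weights, the replicate block or the filter over probe sets, and 1 to 2 with arrays left out. Same-letter arrays of these 2 CHOP-/- groups did not deviate together at every letter (correlations of -0.126 to 0.285), and the labels do not say what the letters are. The block added Psmg3 and Ube2v1 to the calls there and lost Psmd5.

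Between genotypes at 8 h, proteasome genes, 1 as reported, came to 0 with median centring or only the groups compared, 5 with array weights, 4 with the replicate block in a fit of 8 h arrays only, and 0 to 1 with arrays left out, and Ube2 genes, 0 as reported, to 0 to 1. Before treatment, proteasome genes came to 0 to 1 with arrays left out. The cause of these shifts was not tested. Over all genes, array weights gave 1437 calls against 904 at 8 h in wild type cells, 538 against 221 between genotypes at 8 h, 184 against 116 at 4 h in wild type cells and 78 against 47 before treatment. Median centring gave 137, 73 and, at 4 h in CHOP-/- cells, 38 against 81, where the deposited scaling gave 49. Fits of the compared groups alone gave 67 and 20 at 4 h in the 2 genotypes, and 21 and 55 between genotypes untreated and at 4 h. Single arrays left out gave as few as 66, 48, 29, 69 and 141 calls at 4 h in wild type and CHOP-/- cells and between genotypes untreated, at 4 h and at 8 h. At 8 h in wild type cells, median centring moved the share of calls that were higher from 58.4% to 69.4%, and from 52.9% to 67.6% in CHOP-/- cells. A dimmer probe set of Ube2o gave a called change of 0.49 (limma adjusted p = 0.043) at 8 h in wild type cells, where its brighter one gave 0.11.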
